A study of Sporobolus alterniflorus and Setaria viridis with 12 samples.

Results

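Mature leaves of Setaria viridis, green foxtail, were compared under NaCl and without it, with 3 salt libraries set against 3 control libraries out of the 12 RNA-seq libraries of the series. The genes described are the 11266 of 15218 gene IDs in the deposited table whose mean over these 6 libraries reached 1 FPKM (a count of sequenced fragments corrected for the length of the gene and the size of the library). The other 6 libraries come from Spartina alterniflora, a salt marsh cordgrass. The title of the series asks how vulnerable S. viridis is to salt beside this relative.

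Salt plants and control plants were both raised from seed sown on potted soil, at 25 to 27 °C with 16 h of light and 8 h of dark, and moved to hydroponic medium before treatment. The labels give no accession line, plant age, duration of the salt treatment or pooling of plants for S. viridis. The dose is uncertain, since the treatment protocol states 250 mM NaCl for this species while its salt columns carry the number 50 and those of the cordgrass carry 250. If the prefixes of the species were exchanged in the columns, columns and protocol would match, and all values below would then be those of the cordgrass. If instead the doses were exchanged in the protocol, the species would stand and the dose of S. viridis would be 50 mM. The files used here cannot settle it. The species is named here as the columns name it. No label states whether the 3 libraries of a group are separate plants, so the p-values rest on variation among libraries that could be purely technical.

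S. viridis is a small C4 grass, in which carbon is first fixed in mesophyll cells and then released to the Calvin cycle in bundle sheath cells. Excess NaCl is known to act on leaves first as an osmotic stress, which closes stomata through abscisic acid, and later through the sodium and chloride that build up in the cells. Leaves of salt-sensitive grasses are known to lower photosynthesis and growth and to raise protective proteins, compatible solutes and ion transporters. None of the sources used here pairs the IDs with gene names, so these pathways, and the markers that would check the leaf label, could not be looked up. Genes are therefore given by ID, with 2 that rose, 2 that fell and a few whose levels bear on the spread. In whole leaves, fewer cells of a type and less RNA per cell cannot be told apart.

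Libraries carry the letters A, B and C of their columns. FPKM keeps no read totals, so the depth behind the values is unknown. Total FPKM over the table was 510410, 522713 and 542488 in salt libraries A, B and C, against 620520, 615049 and 631719 in control libraries A, B and C. Every salt total lay below every control total. The calls below were also made on rescaled values, while the part of these totals in the other results was not tested. Salt library C stood apart from the other salt libraries. Of the 11266 genes, 32.03% to 33.0% lay more than 2-fold from their level in a control library when read in salt C, against 46.4% to 51.1% when read in salt A or B (2-fold on log2(FPKM + 1), the scale of all fold changes here). The control libraries differed from each other by that much for 1.10% to 3.59% of genes, and the salt libraries for 15.4% to 22.1%.

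Genes that changed under salt held most of the FPKM in every library. Genes that rose held 60.8%, 52.1% and 40.1% of total FPKM in salt libraries A, B and C, against 8.56%, 7.93% and 8.01% in control libraries A, B and C. Genes that fell held 10.8%, 14.9% and 23.3% in the salt libraries, against 61.8%, 63.9% and 64.4% in the controls. Neither set overlapped between groups, but both were chosen by this same contrast, so these shares are a description with no test. Genes that were not called held 28.3% to 36.3% of total FPKM under salt and 27.4% to 29.5% in controls.

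**Figure D1:**
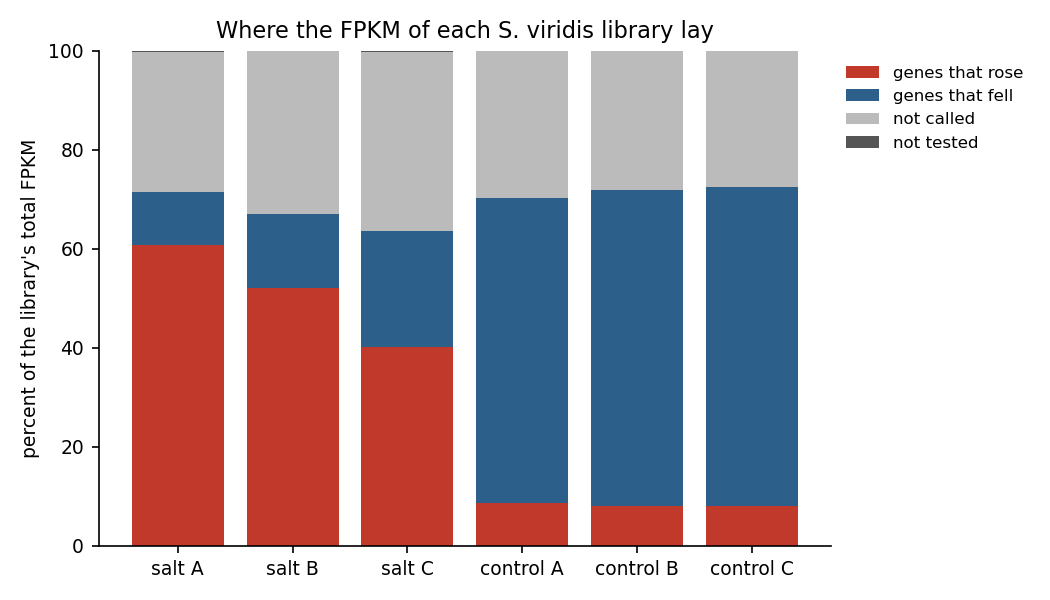
Percent of each S. viridis library's total FPKM (y axis) held by genes that rose, genes that fell, genes not called and genes below the level filter, for the 3 salt and 3 control libraries (x axis). Genes that rose take 40.1% to 60.8% of the salt libraries and 7.93% to 8.56% of the controls, with salt C nearest to the controls.

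Of the 11266 genes, 2859 rose and 3054 fell (limma, Benjamini-Hochberg adjusted p under 0.05). That is 25.4% and 27.1% of the genes tested, 52.5% in all. In 3470 genes, or 30.8%, every salt library lay above every control, and in 3900, or 34.6%, every salt library lay below every control. Full separation of 3 against 3 libraries has an exact permutation p of 0.1 (two-sided), so genes without a change can separate too. Only 35 of the called genes had groups that overlapped, while 1492 genes whose groups did not overlap were not called. With upper quartile scaling of the libraries limma called 2688 genes as higher and 3777 as lower, and with median centring 2824 and 3630. Without salt library A limma called 2698 genes as higher and 2442 as lower, and without salt B 2772 and 2653. Without salt library C it called 2940 genes as higher and 4093 as lower. Leaving out a control library lowered both numbers from those with all libraries. Genes that rose numbered 2193 without control A, 2023 without control B and 2194 without control C. Genes that fell numbered 1916, 1884 and 1976 in the same order, and the total without control B was 3907.

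Rises were larger than falls on this scale. Among called genes, 503 rose and 210 fell at least 8-fold, 140 rose and 21 fell at least 32-fold, and 12 rose and 2 fell at least 256-fold. The 5% point of all 11266 log2 fold changes was -2.17 and the 95% point 2.87, around a median of -0.12. The genes that rose at least 8-fold had a median level of 91.3 FPKM under salt and 1.72 FPKM in controls. The genes that fell at least 8-fold had a median of 7.89 FPKM under salt and 90.0 FPKM in controls. The largest falls were thus in genes high in controls and the largest rises in genes low in controls, which the addition of 1 FPKM fixes in part, since a gene cannot fall below 0 on this scale. In 5 genes every control was under 1 FPKM and every salt library at 100 FPKM or more, and 2 genes showed the opposite.

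**Figure D2:**
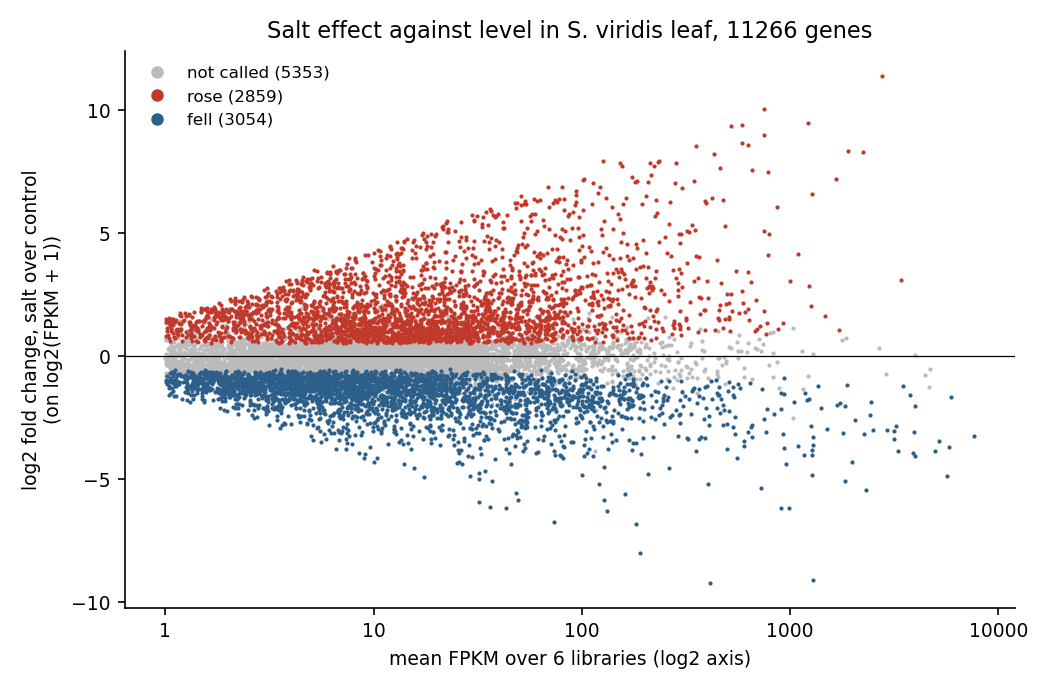
Log2 fold change of salt over control on log2(FPKM + 1) (y axis) against the mean FPKM over the 6 libraries (x axis, log2 scale), with 1 point for each of 11266 genes, coloured by call. Falls spread through all levels and outnumber rises below 10 FPKM and at 1000 FPKM and above. The added 1 FPKM narrows the fan of points at low levels.

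The most abundant transcripts carried much of the loss. Of 73 genes with a mean of 1000 FPKM or more, 46 fell and 13 rose, with a median log2 fold change of -1.91. Among the 214 genes from 300 to 1000 FPKM, 76 fell and 80 rose. In the lowest class, below 3 FPKM, 538 fell and 325 rose of 1792. From 3 to 10 FPKM 944 fell and 704 rose of 3544, while from 30 to 100 FPKM 491 fell and 640 rose of 1835. The direction with more calls therefore changed with the level on these unscaled values, and falls prevailed at both ends of the range. The classes were not read on rescaled values, under which the share of falls among all calls was larger.

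The distribution of transcript levels was flatter under salt. The 100 highest genes of each library held 30.3%, 31.8% and 30.4% of total FPKM in salt libraries A, B and C, against 45.9%, 47.1% and 47.1% in control libraries A, B and C. The single highest gene held 1.08% to 1.40% under salt and 2.03% to 2.26% in controls. Genes at 1000 FPKM or more numbered 66, 65 and 64 in the salt libraries, against 83, 85 and 81 in the controls. Genes at 100 FPKM or more went the other way, at 943, 920 and 947 under salt and 846, 818 and 846 in controls. Genes listed at 0 numbered 1599, 1754 and 1613 under salt and 1857, 1976 and 1964 in controls. In each of these 5 measures the groups did not overlap, and an exact permutation over the 6 libraries (two-sided) gave p = 0.1, the lowest value possible for 3 against 3. In all, 11 such measures were compared, and no adjusted p can fall below 0.1. Genes at 1 FPKM or more did overlap, at 10699 ± 341.7 under salt and 10745.3 ± 47.5 in controls (SD, n = 3 each, exact permutation p = 1).

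To read the abundant genes outside the library that chose them, the 100 highest of 1 library were followed in the other 5. The 100 highest of control A held 10.005%, 16.7% and 20.2% of total FPKM in salt libraries A, B and C, against 46.9% in control B and 46.7% in control C. Sets chosen in control B or C gave 9.06% to 20.3% in salt libraries, against 45.3% to 46.9% in the controls that had not chosen them. Salt A was the lowest and salt C the highest of the salt libraries each time, and all lay below all controls. The 100 highest of salt A held 28.5% in salt B and 24.6% in salt C, against 15.8%, 14.3% and 13.1% in control libraries A, B and C. The 100 highest of salt B held 25.4% in salt A and 23.4% in salt C, against 21.7%, 20.2% and 19.9% in control libraries A, B and C. The 100 highest of salt C held 24.3% in salt A and 25.5% in salt B, against 35.0% to 35.6% in controls. The sets of salt A and salt B thus held more in the other salt libraries than in controls, by a small gap for salt B, and the set of salt C held more in controls.

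Membership of the top 100 also set salt C nearest to the controls. Salt A shared 18 or 19 of its 100 highest genes with a control, salt B 28 to 31 and salt C 47 to 49, while the salt libraries shared 59 to 64 with each other and the controls 90 to 94. Of 88 genes in the top 100 of every control, 71 fell, 1 rose and 16 were not called. Their median rank was 157.5 under salt and 44.5 in controls. Of 43 genes in the top 100 of every salt library, 29 rose, 4 fell and 10 were not called, with a median rank of 25 under salt and 184 in controls. Of all 11266 tested genes, 27.1% fell and 25.4% rose, and of those with a mean of 1000 FPKM or more, 63.0% fell and 17.8% rose. Both sets were chosen on levels that the contrast also uses, so these counts carry no test.

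**Figure D3:**
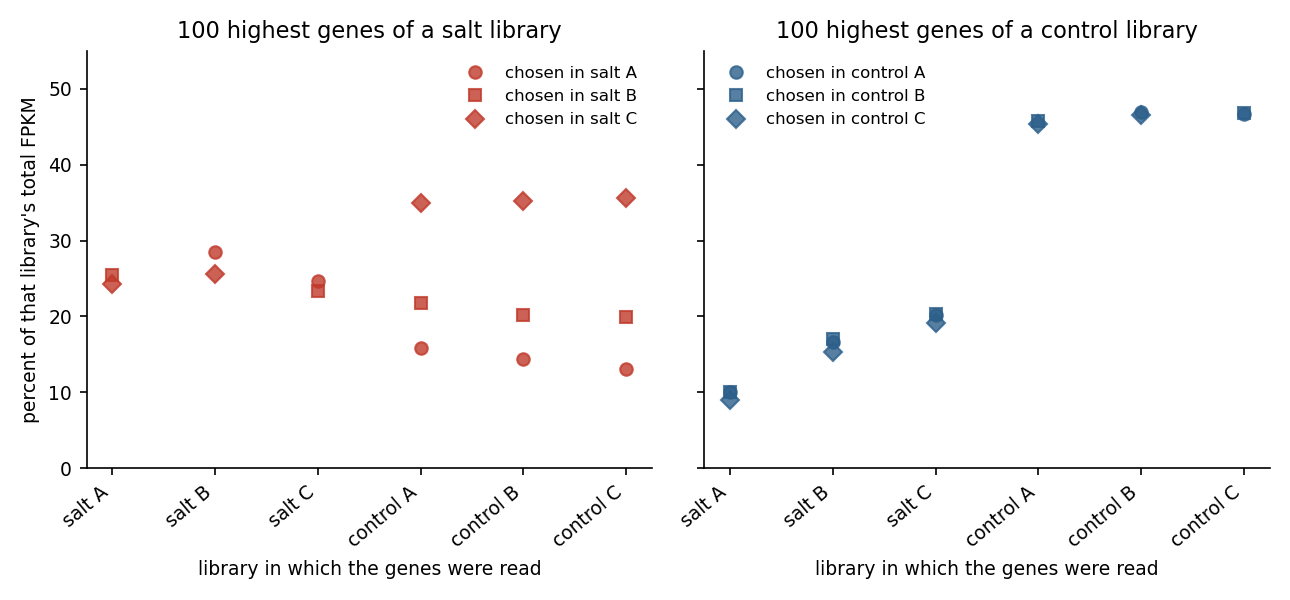
Percent of each library's total FPKM (y axis) held by the 100 highest genes of a salt library (left) or a control library (right), read in the libraries on the x axis other than the one that chose them. Control-chosen sets hold 45.3% to 46.9% in other controls and 9.06% to 20.3% under salt; the set of salt C holds more in controls than in salt.

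The genes named as risen or fallen were picked from called genes whose groups did not overlap. Their separation and their adjusted p below the threshold therefore carry no test. Among such genes Sevir.9G447600 had the largest gain in mean FPKM. It had 7141, 4180 and 5186 FPKM in salt libraries A, B and C, against 3.72, 0.2 and 0.42 FPKM in control libraries A, B and C. Every salt library lay far above every control, and control A was the highest control. Its log2 fold change was 11.39 ± 0.53 (SE, limma adjusted p = 3.46e-05), or 12.64 with 0.1 added in place of 1. In the cordgrass the same ID had 2.14, 8.27 and 2.69 FPKM in salt libraries A, B and C. The cordgrass controls A, B and C had 0, 0.23 and 0 FPKM, so these groups did not overlap either.

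Sevir.7G275600 was the highest gene of salt libraries B and C. It had 5186, 7297 and 5856 FPKM in salt libraries A, B and C, against 887.8, 821.0 and 482.2 FPKM in control libraries A, B and C. Unlike Sevir.9G447600 it was already abundant in controls, and the groups lay well apart. It rose by 3.10 ± 0.39 (log2 fold change ± SE, limma adjusted p = 0.000928).

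Sevir.2G310200 was the highest gene of all 3 controls. It had 1194, 632.8 and 3827 FPKM in salt libraries A, B and C, against 13562, 13904 and 12839 FPKM in control libraries A, B and C. The controls lay close together, and salt C kept several times the level of salt A and B. The log2 fold change was -3.24 ± 0.67 (SE, limma adjusted p = 0.0065), and the call was lost with no level filter (adjusted p = 0.0709). In the cordgrass the same ID had 27696 to 39939 FPKM under salt and 17714 to 91488 FPKM in controls.

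Sevir.6G164700 had 135.3, 349.0 and 992.5 FPKM in salt libraries A, B and C, against 8742, 10809 and 12791 FPKM in control libraries A, B and C. Again salt C was the highest salt library and far below every control. It fell by 4.88 ± 0.69 on the log2 scale (SE, limma adjusted p = 0.00155). In the cordgrass this ID had 13409 to 23538 FPKM under salt and 20481 to 41002 FPKM in controls, groups that overlapped.

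Whether these salt effects differed from those in the cordgrass was read from the interaction over all 12 libraries, the S. viridis log2 fold change minus that of S. alterniflora. It passed for 24.2% of the 12529 genes tested in that fit (limma, adjusted p under 0.05). The genes read here were named for a large change in the same S. viridis libraries, a choice that favours a difference. The difference was 9.24 ± 0.72 (SE, adjusted p = 2.07e-05) for Sevir.9G447600, or 7.99 with 0.1 added in place of 1. For Sevir.6G164700 it was -4.17 ± 0.85 (adjusted p = 0.00538). For Sevir.2G310200 it was -3.00 ± 0.95 (adjusted p = 0.038), and this call was lost on leaving out salt A, salt B or any control of S. viridis, with adjusted p = 0.0702 to 0.0855. For Sevir.7G275600 it did not pass, at 2.00 ± 0.73 (adjusted p = 0.0635). Species, dose and the way cordgrass values were assigned to Setaria IDs cannot be told apart in this contrast.

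The 5353 genes that were not called are not all shown to be steady. For 3019 of them the 95% interval of the log2 fold change lay within 2-fold either way, and for the other 2334 it reached past 2-fold. Among them 757 had an unadjusted p under 0.05, and 256 had an estimated change of more than 2-fold.

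The not-called gene of highest mean was Sevir.9G187300, with 1574, 6828 and 4361 FPKM in salt libraries A, B and C, against 5447, 5784 and 4222 FPKM in control libraries A, B and C. Salt B lay above all controls and salt A below them, so the groups overlapped. Its log2 fold change was -0.50 ± 0.59 (SE, limma adjusted p = 0.499), with a 95% interval of -1.89 to 0.89, and 0.10 without salt A. The next was Sevir.5G428700, with 1137, 4907 and 3171 FPKM in salt libraries A, B and C, against 7829, 6090 and 4854 FPKM in control libraries A, B and C. Its log2 fold change was -1.24 ± 0.60 (limma adjusted p = 0.119), and its interval reached from -2.64 to 0.17. It was -0.64 without salt A, and it passed without salt B (-1.69, limma adjusted p = 0.0489). In both genes salt A was lowest and salt B highest, an order that neither gene that fell showed.

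**Figure D4:**
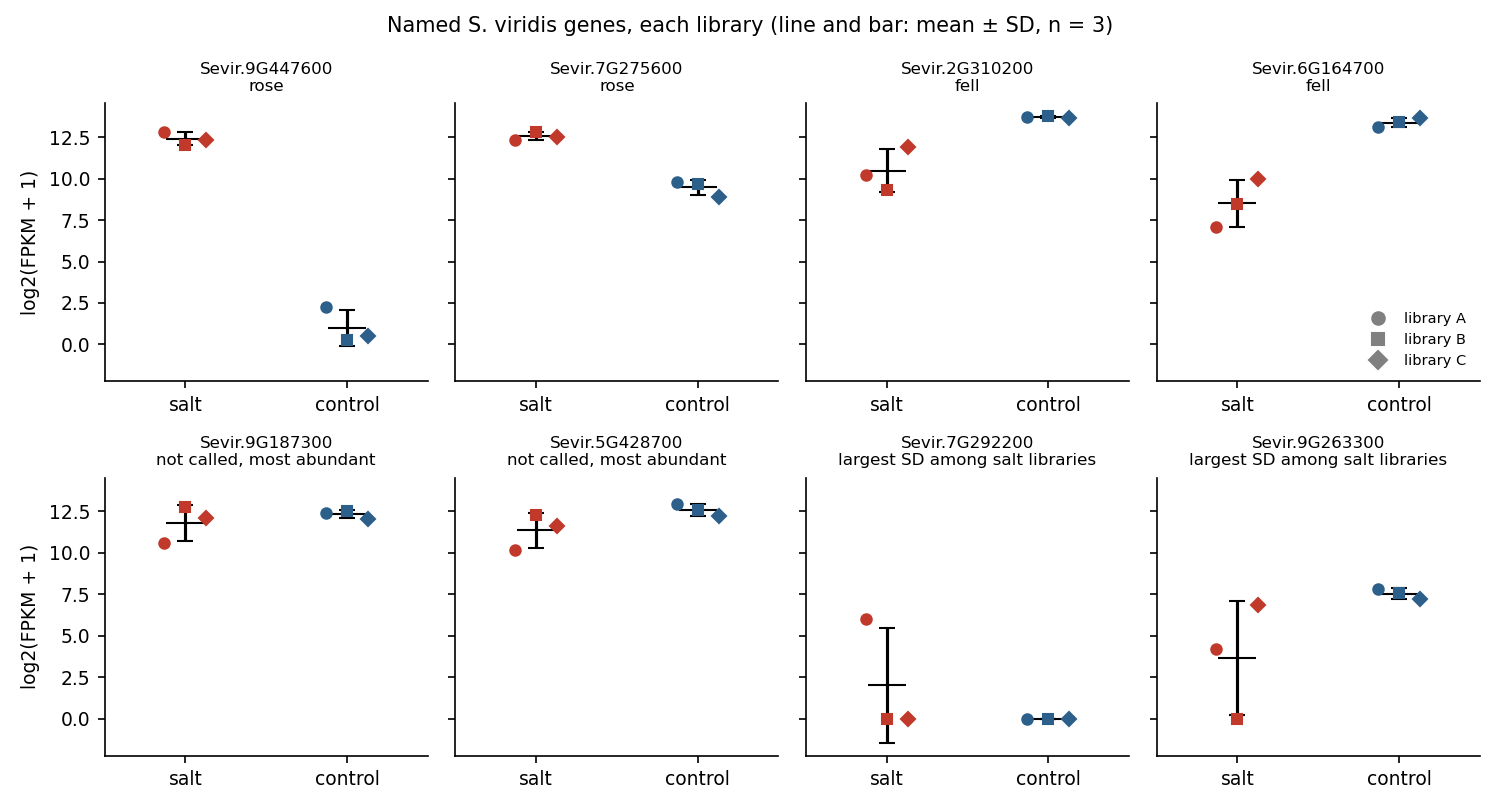
Log2(FPKM + 1) (y axis) of the 8 named S. viridis genes in the 3 salt and the 3 control libraries (x axis); each symbol is 1 library, and the line and bar give the mean ± SD. Controls lie close together in most genes, and salt C lies nearest to the controls in Sevir.2G310200 and Sevir.6G164700.

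The salt libraries differed among themselves more than the controls did. The median SD of log2(FPKM + 1) within the group was 0.42 under salt and 0.15 in controls, and the salt SD was the larger in 86.3% of genes. An SD above 1 was found for 923 genes under salt and 89 in controls. Among genes that fell the median SD was 0.53 under salt and 0.15 in controls, and among genes that rose it was 0.41 under salt and 0.16 in controls. limma uses 1 spread per gene for both groups. With library weights, which scale that spread by library in the same way for all genes, 2881 genes rose and 3412 fell.

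The largest salt SD of any tested gene was that of Sevir.7G292200, with 63.56 FPKM in salt library A and listed at 0 in salt B, salt C and all 3 controls. Sevir.9G263300 was next, with 17.3, 0 and 112.5 FPKM in salt libraries A, B and C, against 227.6, 193.7 and 146.0 FPKM in control libraries A, B and C. Its salt libraries all lay below its controls, yet they ran from a listed 0 to near the lowest control. Its log2 fold change was -3.87 ± 1.49 (SE) and did not pass (limma adjusted p = 0.061), though it did without salt C (-5.45, adjusted p = 0.00687), with library weights (-5.01, adjusted p = 0.00445), in 1 fit over 12 libraries (adjusted p = 0.0239) and with the column letter as a block (adjusted p = 0.0249). Without salt B its log2 fold change was -2.04 and did not pass (limma adjusted p = 0.0598).

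Salt C lay nearest of the salt libraries to the control mean in 2536 of the 3054 genes that fell, or 83.0%, and in 1452 of the 2859 that rose, or 50.8%. The median log2 change of the genes that fell was -1.63, -1.61 and -0.92 in salt libraries A, B and C, and that of the genes that rose was 1.76, 1.56 and 1.39. Salt C took part in the calls it is read from here, so genes were also chosen without it.

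Genes were chosen where 2 salt libraries both lay at least 2-fold beyond 2 control libraries, and were then read in the salt and the control library that had not chosen them, for all 9 choices. Read in salt C, the 1676 to 1800 genes chosen as higher were higher in 97.4% to 99.05%, and by at least 2-fold in 80.4% to 85.4%. The 2060 to 2134 genes chosen as lower were lower in salt C in 96.5% to 97.8%, and by at least 2-fold in 52.2% to 56.0%. The median gene showed 74.5% to 80.6% of the log2 rise of salt A and B in salt C, and 51.2% to 53.6% of their fall. Salt C therefore moved in the direction of salt A and B in nearly all chosen genes, and showed a smaller share of their fall than of their rise. Over all tested genes the median difference from the control mean was -0.31, -0.13 and 0.10 (log2) in salt libraries A, B and C. The readings used unscaled values, and the part of this offset in the place of salt C among the salt libraries was not tested.

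Salt A showed the other extreme. Read in salt A, the 1441 to 1558 genes chosen as higher on salt B and C showed 108.6% to 116.9% of the log2 rise. The 1039 to 1053 genes chosen as lower showed 123.9% to 126.6% of the fall. A 2-fold change in the chosen direction was seen in 91.9% to 94.9% and 95.3% to 97.3%. Read in salt B, genes chosen on salt A and C showed 92.8% to 99.97% of the rise and 102.0% to 109.4% of the fall. For salt A and salt B, both the choice of genes and the change they are set against include salt C, whose changes were smaller. A change of 2-fold against the chosen direction was seen in at most 0.389% of genes in any of the 9 choices. Whether plant, leaf, dose or handling differed between salt libraries A, B and C was not tested.

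**Figure D5:**
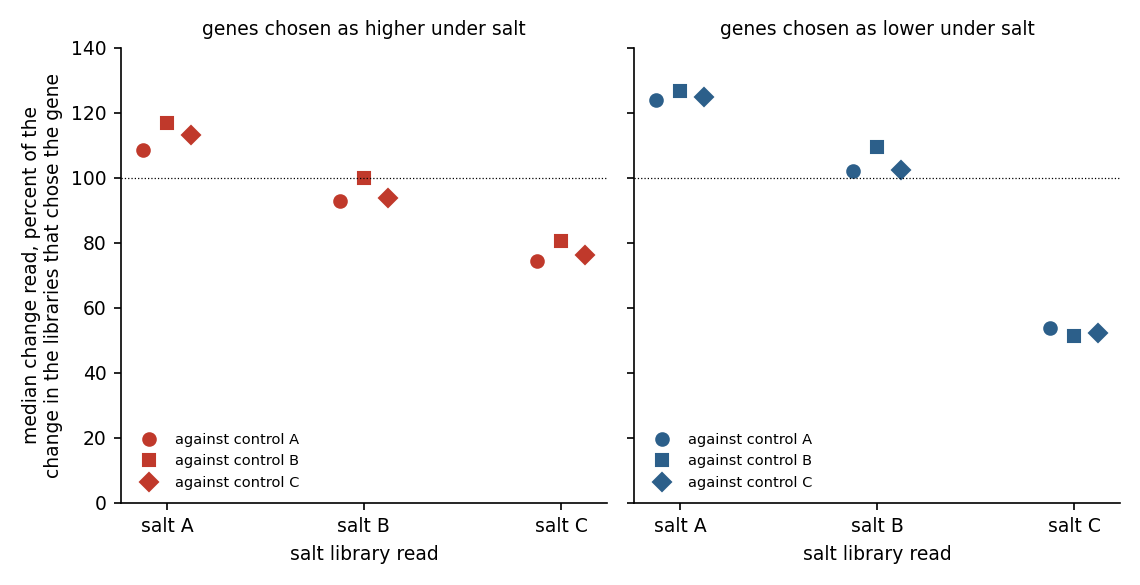
Median log2 change read in a salt and a control library that had not chosen the genes, as a percent of the change in the libraries that had (y axis), for each salt library read (x axis) and each control library (symbols). Genes chosen as higher are on the left and as lower on the right; salt C shows 74.5% to 80.6% of the rise and 51.2% to 53.6% of the fall.

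The changed genes were spread over the genome as the IDs give it, by the chromosome digit before the letter G. The called share was 49.6% of 425 genes on chromosome 8 and 53.8% of 1037 genes on chromosome 7, with the other chromosomes between. Genes that rose made up 21.6% on chromosome 8 and 27.3% on chromosome 5, the ends of their range, and genes that fell 25.1% on chromosome 5 and 29.0% on chromosome 7. Of the genes that rose, 30.6% were followed in ID order by another tested gene that rose, against 25.4% of all tested genes, and for genes that fell the values were 28.6% against 27.1%. The longest unbroken run was 8 genes that rose, on chromosome 9, and 7 that fell, on chromosome 7. Neighbouring copies of a gene can share reads, so such runs are not counts of independent genes.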

How the data were processed

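Total RNA of mature leaves was extracted with a PureLink kit and sequenced on the Illumina platform in paired reads of 150 bp, per the labels' protocols. The authors deposited 1 table of FPKM values, per the file headers. Per the submitters' processing notes, RSEM and edgeR belong to the processing, with neither role nor version stated. The sources used here do not give aligner, reference, build or filters. Columns were assigned to groups by species and treatment.

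FPKM is not a count, so log2(FPKM + 1) was tested with limma 3.58.1 in R 4.3.3 (eBayes with trend, two-sided, Benjamini-Hochberg, threshold 0.05) on the 6 S. viridis libraries, over genes averaging 1 FPKM or more. The interaction used all 12 libraries. The code was tested on simulated data with the same spread in both groups, which these libraries did not have. Tables and figures used Python 3.11.15, pandas 2.3.3 and matplotlib 3.10.9. Genes and comparisons were chosen with earlier results of these data known. Named genes were the 2 called, non-overlapping genes with the largest gain and the 2 with the largest loss of mean FPKM, the 2 most abundant not called, and the 2 with the largest SD among salt libraries. Gene lists and cell type markers could not be used, since 0 IDs are paired with a name. Alternatives were another pseudocount (0.1), no filter, a filter at 5 FPKM, upper quartile scaling, median centring, no trend, 1 fit over 12 libraries, the column letter as a block and each library left out. Library weights and the reading of genes in libraries that had not chosen them were added after seeing the data.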

Additional observations from a re-analysis of the deposited data

Results flagged for a closer look

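For 3 of the 8 named genes the log2 fold change under salt differed between S. viridis and S. alterniflora (limma interaction, adjusted p under 0.05). Taken as S. viridis minus S. alterniflora, it differed by 9.24 for Sevir.9G447600, -3.00 for Sevir.2G310200 and -4.17 for Sevir.6G164700. Of all 12529 genes in that fit, 24.2% passed. These 3 genes were named for a large gain or loss of mean FPKM in the same S. viridis libraries, a choice that favours a difference. Groups of 3 libraries were too small for an outlier test.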

How the results depend on the processing

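No call changed sign among the genes called both with all libraries and under any of the 15 alternatives. Leaving out 1 library gave 3907 to 7033 called genes, 2023 to 2940 that rose and 1884 to 4093 that fell. The other alternatives kept each count within 1.5 times, and the column letter as a block gave 5519 calls, 5307 of them shared. Deviations of same-lettered libraries correlated at -0.003 to 0.05 across genes, and those of differently lettered ones at -0.16 to 0.10. With 3 libraries in a group these values cannot decide whether the letters pair the libraries. The share of calls that were higher was 41.6% with upper quartile scaling and 53.4% without control A, against 48.4%. The median log2 fold change of all genes was -0.21 with upper quartile scaling and -0.14 with median centring. Leaving out 1 library moved the log2 fold change of Sevir.9G187300 between -0.96 and 0.10, its interaction between -0.089 and 0.97, and that of Sevir.7G292200 between -0.50 and 2.51; the cause was not tested. The interaction of Sevir.2G310200 was -3.00 with a pseudocount of 0.1 and no longer passed (adjusted p = 0.0691). Shares of the 10 and 100 highest genes kept their direction, by -6.70 to -5.62 and -16.3 to -15.6 percentage points without 1 library. Depth is unknown, so its limits cannot be stated.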
